A study of Homo sapiens with 2 samples.

Results

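The 37 genes described here encode the machinery of DNA replication and its control at entry into S phase, namely the MCM2-7 helicase and its loading and activation factors, the GINS, RFC and ORC complexes, DNA polymerase subunits, enzymes of nucleotide synthesis, cyclin E and E2F regulators, chromatin assembly factors and a checkpoint adaptor. They were taken by symbol from a list of names. The selection rule uses measured values only for a minimum mean level over both libraries, and not for a difference between them. The list was, however, drawn up with earlier results of these data known. By that rule all 37 are among the 11697 gene symbols of the table, and among the 10601 genes whose mean over both libraries reached 1 FPKM. FPKM are fragments per kilobase of transcript per 1000000 mapped fragments, a level that is already scaled to transcript length, and the values of all listed protein-coding transcripts of a gene were summed. The cells were THP-1, an established monocytic leukaemia line that grows in suspension. A culture given the solvent DMSO was compared with a culture given 2 µM of an agent labelled OPA1, both for 48 h, and the series concerns opioid receptor signalling and DNA demethylation in leukaemia. OPA1 names a treatment here, not the mitochondrial gene. Because a single library stands for each group, nothing below was checked against replicates and no p-value can be given, and the number of reads behind each value is unknown.

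A replication origin is first marked by ORC, the origin recognition complex, on which CDC6 and CDT1 load the ring-shaped MCM2-7 complex while the cell is in G1. At the start of S phase the ring is joined by CDC45 and the GINS complex to form the active helicase, and polymerases, the sliding clamp PCNA and its loader RFC then copy both strands. Many of these genes are transcribed by E2F factors once cyclin E and its kinase have inactivated the retinoblastoma protein, so their mRNA is higher in cells that pass from G1 into S phase. In a bulk culture, fewer cells in S phase and less RNA of a gene per cell cannot be told apart.

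The element bound by E2F factors is shown first because these factors are known to drive many of the genes and the selection did not use it. Promoters of 300 bases (250 before and 50 after the RefSeq transcription start, GRCh38.p14) were found for 33 of the 37 genes, 41 promoters in all. The motif was searched on both strands in the forms TTTCCCGC, TTTCGCGC, TTTGCCGC and TTTGGCGC, counting overlapping matches. It was present in 18 of the 41 promoters, 43.9%, against 3.31% of 35116 promoters of all genes, so 23 of the 41 held no match. The general promoter element CCAAT, searched on both strands, was in 24 of the 41 (58.5%), against 34.6% of all. The 18 promoters belonged to 18 genes, among them MCM2, MCM3, MCM6, MCM7, GINS1, GINS2, GINS3, CDC6, CDT1, PCNA, TYMS and E2F1 itself. A match is a description of the letters and not a measured binding site. MCM6 carried the most matches, 4, which form overlapping forward and reverse pairs, and MCM2, MCM3, MCM7 and E2F1 carried 2 each. For MCM7 these lay in the promoter printed here, and its other listed promoters held no match. The promoters of MCM6, MCM3, MCM7 and E2F1 are printed 5′ to 3′ on the strand of the gene, with the matches in capitals. They cover 3 helicase subunits, of which MCM3 and MCM6 were level between the libraries and MCM7 was not, and a regulator of the group. They lie at chr2:135876394-135876693, chr6:52284693-52284992, chr7:100101348-100101647 and chr20:33686336-33686635 of GRCh38.p14, in the same order and all on the minus strand.
MCM6: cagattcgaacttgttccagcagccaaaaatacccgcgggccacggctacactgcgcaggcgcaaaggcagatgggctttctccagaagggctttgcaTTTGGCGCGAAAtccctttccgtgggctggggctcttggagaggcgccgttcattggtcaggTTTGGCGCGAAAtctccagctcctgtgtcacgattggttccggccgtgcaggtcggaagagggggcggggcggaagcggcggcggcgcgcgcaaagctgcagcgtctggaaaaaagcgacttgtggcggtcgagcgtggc
MCM3: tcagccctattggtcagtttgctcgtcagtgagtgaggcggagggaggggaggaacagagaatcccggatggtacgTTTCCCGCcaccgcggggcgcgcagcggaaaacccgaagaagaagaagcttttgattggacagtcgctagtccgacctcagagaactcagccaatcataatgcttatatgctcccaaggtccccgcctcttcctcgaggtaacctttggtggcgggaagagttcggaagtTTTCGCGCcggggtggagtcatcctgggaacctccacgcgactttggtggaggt
MCM7: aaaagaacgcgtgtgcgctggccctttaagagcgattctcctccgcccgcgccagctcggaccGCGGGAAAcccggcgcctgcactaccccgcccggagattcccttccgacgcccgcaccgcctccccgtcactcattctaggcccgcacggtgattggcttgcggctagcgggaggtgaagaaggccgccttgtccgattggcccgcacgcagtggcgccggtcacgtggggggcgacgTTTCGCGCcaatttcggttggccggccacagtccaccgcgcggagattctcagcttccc
E2F1: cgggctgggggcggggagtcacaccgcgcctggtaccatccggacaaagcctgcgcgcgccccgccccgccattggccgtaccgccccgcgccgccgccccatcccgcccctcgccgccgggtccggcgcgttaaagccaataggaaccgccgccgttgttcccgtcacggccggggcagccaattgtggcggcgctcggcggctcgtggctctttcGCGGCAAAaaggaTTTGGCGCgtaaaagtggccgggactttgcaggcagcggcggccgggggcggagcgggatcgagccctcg

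Most replication genes stood at nearly the same level in both libraries. The log2 ratio of OPA1 over DMSO, taken after adding 1 FPKM, had a median of -0.01 over the 37 genes, with 16 above and 21 below 0, beside a median of -0.00024 over all 10601 genes. Its interquartile range was -0.10 to 0.10, against -0.14 to 0.14 over the 7270 genes averaging 5 FPKM or more, the class that holds all 37. Of the 37 genes, 31 had a log2 ratio within 0.25 of 0, which is true of 72.4% of genes at that level. None was at least 2-fold higher with OPA1 (1.97% of all genes and 1.57% of those with at least 5 FPKM). The 2 that were at least 2-fold lower were MCM7 and GINS4 (1.99% of all genes and 1.65% of those with at least 5 FPKM were as low). The FPKM of the 37 genes together was 1623 with DMSO and 1586 with OPA1. Without MCM7 and GINS4, set aside after their values were seen, the other 35 genes summed to 1523 and 1543 FPKM.

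The order of the genes by level was also kept for the most part. MCM3, TYMS, MCM4 and PCNA held ranks 1 to 4 in both libraries, and E2F2 ranked last in both. Pearson's r of log2(FPKM + 1) between the libraries was 0.963 across the 37 genes, 0.989 across 35 without MCM7 and GINS4, and 0.969 across all 10601 genes, where genes are points of the same pair of libraries and not independent. MCM7 moved from rank 8 to rank 17 and GINS4 from rank 21 to rank 34.

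**Figure D1:**
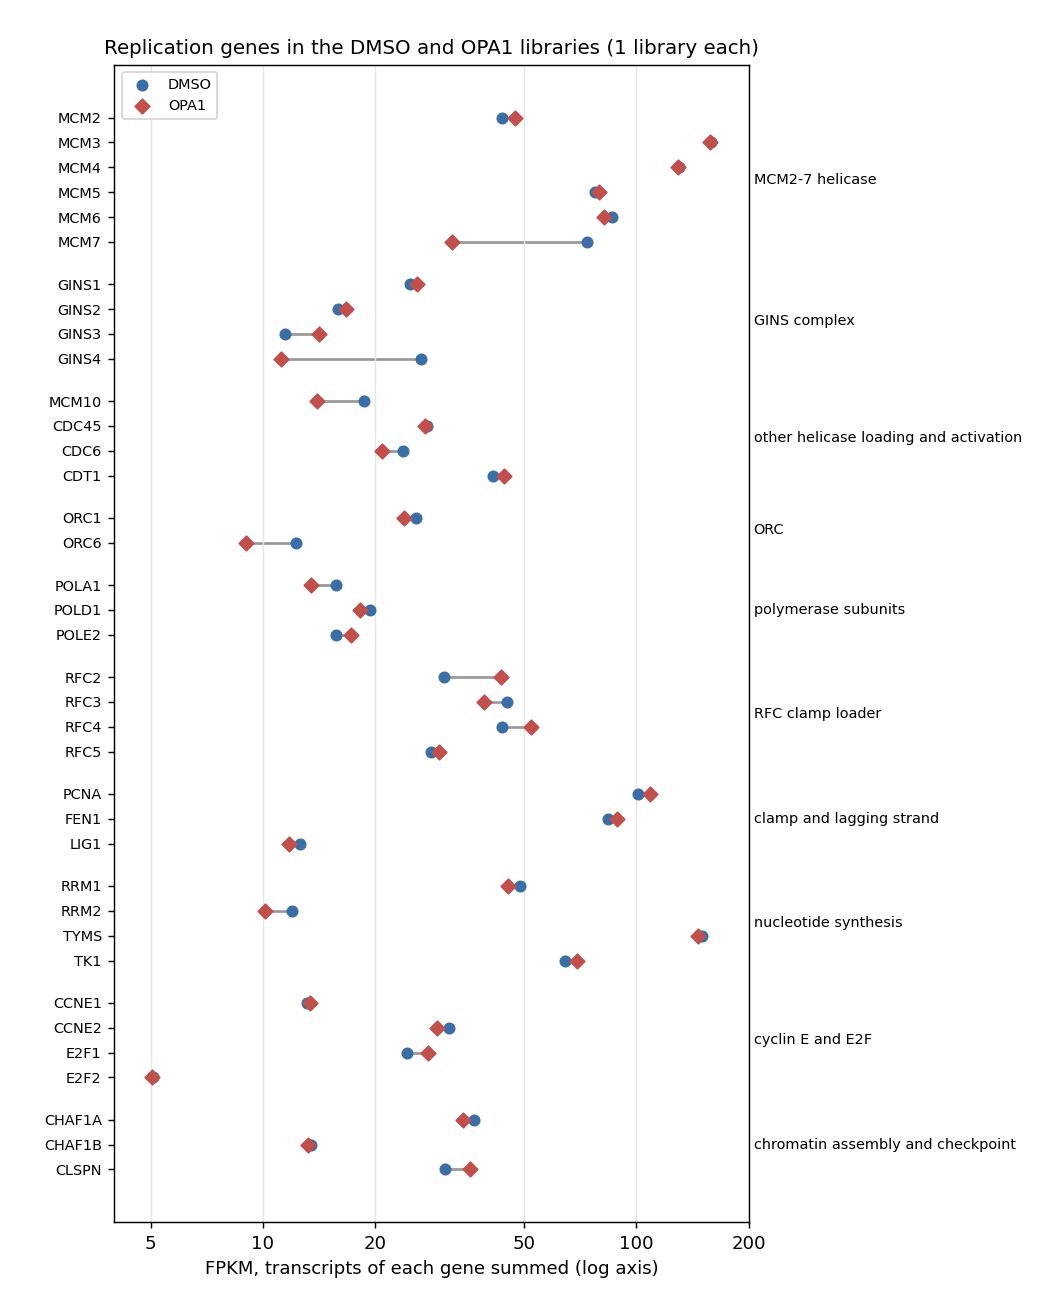
FPKM of each of the 37 genes on a log axis, with the DMSO library as circles and the OPA1 library as diamonds, 1 library each, grouped by role. The markers nearly coincide for most genes, and MCM7 (73.6 and 32.1 FPKM) and GINS4 (26.4 and 11.2 FPKM) have the longest connecting lines.

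The MCM2-7 ring is the replicative helicase, and 5 of its 6 subunits were level. In the values that follow, the DMSO library comes before the OPA1 library. MCM2, MCM5 and MCM6 were at 43.7 and 47.3, 77.3 and 79.2, and 85.9 and 82.1 FPKM. MCM3, the most abundant transcript sum of the 37 genes, was at 159 and 158 FPKM, and MCM4 at 129.8 and 129.6 FPKM. These 5 subunits, without MCM7, summed to 495.4 and 495.8 FPKM, a difference of 0.0912%. Within the ring the levels were not equal, since MCM3 was several times above MCM2 in both libraries although the proteins assemble in equal numbers.

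MCM7, the remaining subunit, was the exception, at 73.6 and 32.1 FPKM. That is 2.30-fold lower, a log2 ratio of -1.18, and MCM7 went from the fifth to the lowest of the 6 subunits. Of 1752 genes whose mean level was within 2-fold of that of MCM7, 19 (1.08%) differed by as much in either direction. MCM7 lies on chromosome 7 from 99690403 to 99699563 on the minus strand (hg19). Its 5′ end overlaps by 384 bases the listed locus of AP4M1 on the opposite strand, a gene at 1.95 and 1.16 FPKM. Whether the authors' counting used strand is not given in the sources used here. Reads from that stretch then cannot be assigned to either gene with certainty. Of the other 36 genes, 5 overlap an opposite-strand gene, by 1520 bases in CCNE2 (INTS8, at 26.7 and 31.6 FPKM), by 166 bases in FEN1 (TMEM258, at 102 and 107 FPKM) and by at most 20 bases in GINS2, RFC4 and CHAF1A. Because of MCM7 the 6 subunits together were 7.23% lower with OPA1 by sum, while their median log2 ratio was -0.01.

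GINS, a tetramer that completes the active helicase, showed a like pattern of 1 divergent subunit. GINS1 was at 24.7 and 25.8 FPKM, GINS2 at 15.9 and 16.7 FPKM and GINS3 at 11.5 and 14.2 FPKM. These 3 subunits were slightly higher with OPA1, with log2 ratios of 0.06, 0.07 and 0.28. GINS4, also known as SLD5, was at 26.4 and 11.2 FPKM, 2.36-fold lower (log2 ratio -1.17), so that it passed from the highest to the lowest of the 4. Of 3703 genes at a level within 2-fold of GINS4, 2.05% differed by as much. The median of the 4 log2 ratios was 0.06 and their sum was 13.5% lower, so the median and the sum differ in sign.

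Factors that load or activate the helicase differed little. CDT1, the licensing factor that brings MCM2-7 to ORC, was at 41.4 and 44.3 FPKM, and CDC6, its ATPase partner, at 23.7 and 20.8 FPKM. CDC45, the third part of the active helicase, was at 27.5 and 27.1 FPKM. MCM10, which is needed to start unwinding, was lower, at 18.7 and 13.95 FPKM (log2 ratio -0.39), a difference reached by 15.3% of 3931 genes at a like level. Over these 4 genes the log2 ratio had a median of -0.10. Of the origin recognition complex, ORC1, its cell-cycle regulated ATPase, was at 25.7 and 23.9 FPKM. ORC6, its smallest subunit, was at 12.2 and 9.03 FPKM, with a log2 ratio of -0.40, a size reached by 17.5% of 4336 similarly expressed genes. Both of these ORC genes were thus lower with OPA1, by log2 ratios smaller in size than those of MCM7 and GINS4. Other ORC subunits, outside the selected genes, did not all go in that direction. ORC3 was at 29.6 and 28.4 FPKM and ORC4 at 4.53 and 4.06 FPKM, while ORC5 was higher, at 11.5 and 12.4 FPKM. ORC2, described further below, was lower.

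The polymerase subunits did not move in a common direction. POLA1, the catalytic subunit of the polymerase that lays primers, was at 15.7 and 13.4 FPKM. POLD1, the catalytic subunit of the main lagging-strand polymerase, was at 19.4 and 18.2 FPKM, and POLE2, a subunit of the leading-strand polymerase, at 15.7 and 17.2 FPKM. Their median log2 ratio was -0.09, and it was 0.41 when the transcript with the highest mean FPKM stood for each gene. In RFC, the pentamer that opens PCNA and places it on DNA, 3 of the 4 listed small subunits were higher with OPA1, with a median log2 ratio of 0.16. Without RFC2 and RFC4, whose transcript shares differed between the libraries, the median of the remaining pair was -0.062. RFC2 had the largest increase of all 37 genes, at 30.5 and 43.3 FPKM, a log2 ratio of 0.49 or a ratio of 1.42, which 8.51% of 2420 genes at a like level reached in size. RFC4 was at 43.7 and 52.1 FPKM, RFC5 at 28.2 and 29.7 FPKM and RFC3 at 44.9 and 39.1 FPKM. The remaining subunit, RFC1, is outside the 37 genes and was lower, at 41.9 and 37.3 FPKM. The clamp PCNA was at 101 and 109 FPKM. FEN1, the nuclease that trims Okazaki fragments, was at 84.1 and 88.7 FPKM, and LIG1, the ligase that joins them, at 12.6 and 11.7 FPKM.

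Of 4 enzymes that supply deoxynucleotides, 3 were slightly lower and 1, TK1, was slightly higher. RRM1, the large subunit of ribonucleotide reductase, was at 48.8 and 45.2 FPKM, and RRM2, its S phase subunit, at 11.9 and 10.1 FPKM. TYMS, thymidylate synthase, was at 150.3 and 146 FPKM and TK1, the cytosolic thymidine kinase, at 64.3 and 69.2 FPKM. The 4 log2 ratios lay between -0.22 and 0.11, with a median of -0.07.

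Those regulators of S phase entry that are among the 37 genes were close to level as well. E2F3 and E2F4, outside the 37 genes, were lower and are described further below. CCNE1 and CCNE2, the cyclins E that activate CDK2, were at 13.1 and 13.3 FPKM and at 31.5 and 29.3 FPKM. E2F1 was at 24.2 and 27.6 FPKM (log2 ratio 0.18) and E2F2 at 5.08 and 5.04 FPKM. CHAF1A and CHAF1B, subunits of the factor that places histones behind the fork, were at 36.7 and 34.3 FPKM and at 13.4 and 13.2 FPKM. CLSPN, the claspin adaptor of the replication checkpoint, was at 30.7 and 35.8 FPKM (log2 ratio 0.21). The 18 genes with an E2F motif match in a promoter had a median log2 ratio of 0.03 (-1.18 to 0.28). The 15 genes with a promoter but no match had one of -0.02 (-0.40 to 0.49), so the ranges overlapped. No promoter was found for MCM4, MCM5, CCNE2 and GINS4, so GINS4, with a log2 ratio of -1.17, is in neither set.

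**Figure D2:**
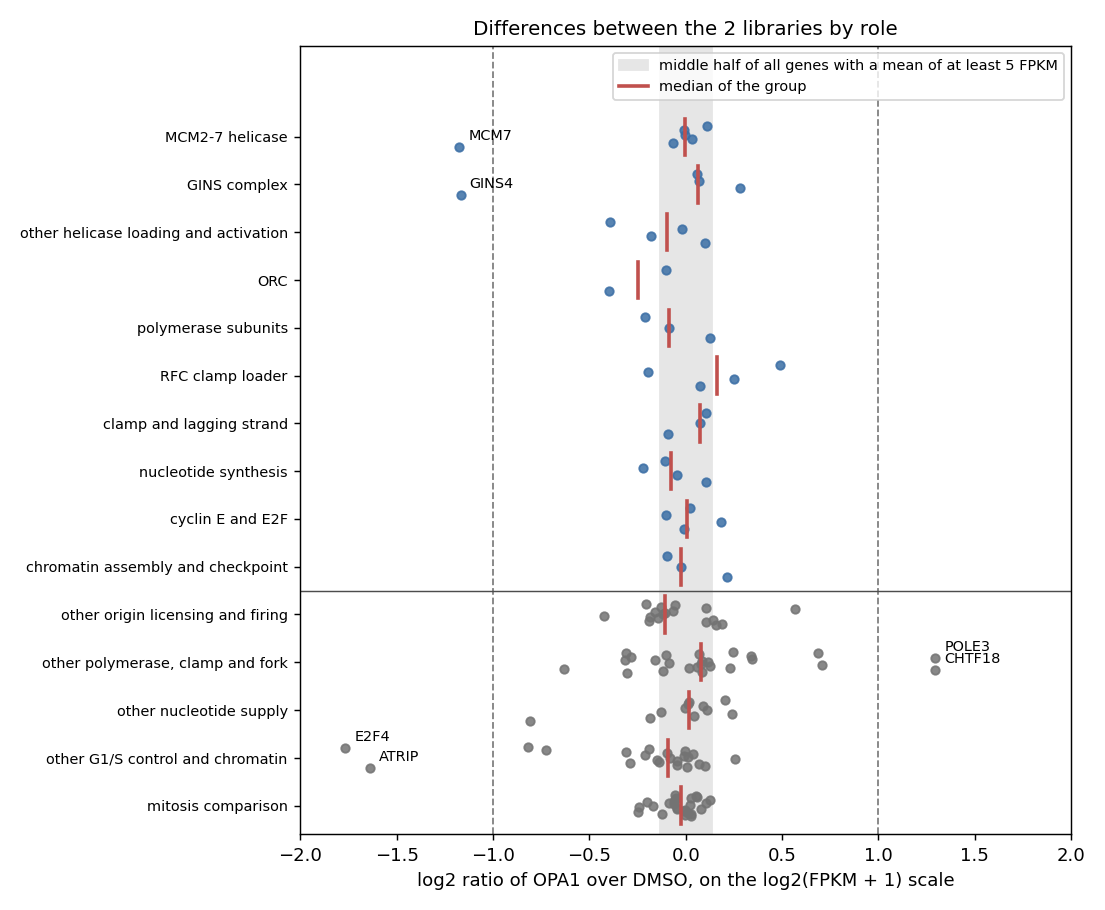
Log2 ratios of OPA1 over DMSO on the log2(FPKM + 1) scale, 1 point per gene, for the 10 role groups (blue) and for comparison lists (grey), with group medians in red and the interquartile range of all genes averaging 5 FPKM or more shaded (-0.14 to 0.14). Dashed lines mark 2-fold, which MCM7 and GINS4 pass on the lower side.

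The transcripts behind the sums differed more than the sums. The 37 genes had 106 listed transcripts, 7 genes had 1 and 30 had several. Exchange is defined here as the share of a gene's FPKM that would have to pass to other listed transcripts to turn the transcript make-up of 1 library into that of the other. It was at least 25% in 6 of the 30 genes, against 33.1% of 7204 genes with 2 or more transcripts, and its median was 4.84% against 13.8%. Among the 5468 such genes averaging 5 FPKM or more, the class of the members, these figures were 26.4% and 10.4%. The 6 genes were MCM3 (77.99%), RFC4 (70.5%), GINS4 (67.98%), POLA1 (43.8%), ORC1 (32.1%) and RFC2 (28.2%). In 5 of the 30 genes (MCM3, MCM7, GINS4, CDC45 and RFC4) some transcript was at least 2-fold higher and another at least 2-fold lower. These folds were taken after adding 1 FPKM to each transcript value, so fewer genes qualify than by the bare FPKM. The same held for 13.9% of the 7204 genes and 14.7% of the 5468.

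MCM3, whose sum was level, had almost complete exchange (chromosome 6, 52128807 to 52149679, minus strand, hg19). MCM3-205 was at 118 FPKM in the DMSO library and at 0.832 FPKM in the OPA1 library. MCM3-207 was at 20.3 and 143 FPKM. These models differ by 39 bases in length (3169 and 3208 bases) and share the same coding sequence of 853 residues, and 99.8% of the 31-base words of the shorter are found in the longer. In RFC4, RFC4-202 was at 21.9 and 0.138 FPKM while RFC4-201 was at 9.80 and 46.4 FPKM. Both encode the same 363 residues. ORC1-202 was at 18.98 and 9.98 FPKM and ORC1-201 at 6.73 and 13.9 FPKM, again with an identical coding sequence, of 861 residues. In RFC4 incomplete models differed too, with RFC4-204 at 7.39 FPKM and a listed 0, and RFC4-208 at 2.23 and 4.70 FPKM. The exchange was thus between models with 1 protein product fully in ORC1, almost fully in MCM3 and in part in RFC4. With transcripts of the same coding sequence summed, a step added after seeing the data, it fell to 3.88% in MCM3, to 20.6% in RFC4 and to 0 in ORC1. The count of genes with at least 25% was then 3 of 30, against 26.0% of the 7204 genes and 20.2% of the 5468 averaging 5 FPKM or more.

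The difference in the sum of MCM7 lay in 1 transcript. MCM7-201, the full-length model of 719 residues, was at 71.9 and 26.5 FPKM and carried 97.6% of the gene's FPKM with DMSO. MCM7-202, which encodes 389 residues, was at 1.14 and 5.18 FPKM, a rise of 4.04 FPKM against a fall of 45.4 FPKM. In GINS4 the difference also lay in 1 transcript. GINS4-209, a model of 192 residues, was at 18.2 and 0.0969 FPKM. The models with the 223 residues of the longest listed product went in different directions, with GINS4-201 at 2.36 and 6.05 FPKM and GINS4-203 at 5.40 and 4.12 FPKM. Those 2 models together were at 7.76 and 10.2 FPKM, a direction opposite to that of the gene sum. That direction rests on how FPKM were split between GINS4-209 and GINS4-201, which differ by 32 bases in length. Of the 31-base words of the shorter, GINS4-201, 97.7% are found in GINS4-209. GINS4 lies on chromosome 8 from 41386725 to 41402565 on the plus strand (hg19).

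POLA1-202 (1468 residues) was at 15.7 and 7.53 FPKM, and POLA1-201 (1462 residues) appeared in the OPA1 library alone, at 5.88 FPKM against a listed 0. These models differ by 46 bases in length, and 99.4% of the 31-base words of the shorter are found in the longer. For RFC2, the full-length RFC2-201 was at 19.5 and 39.5 FPKM, while RFC2-208, a model annotated as incomplete at its 5′ end, was at 7.96 FPKM in the DMSO library and listed at 0 in the other. A listed 0 may come from the estimation of transcripts and does not show that a transcript was absent. In CDC45 the main transcript, CDC45-202, was at 23.5 and 20.1 FPKM, and minor ones went in opposing directions. CDC45-201 was at 1.78 and 5.24 FPKM and CDC45-203 at a listed 0 and 1.11 FPKM, while CDC45-205 was at 2.22 and 0.117 FPKM. At the other end, exchange was under 5% in 15 of the 30 genes (25.4% of the 7204 genes and 30.7% of the 5468), among them PCNA, FEN1, MCM2, MCM4, MCM5, TYMS, TK1 and RRM2.

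**Figure D3:**
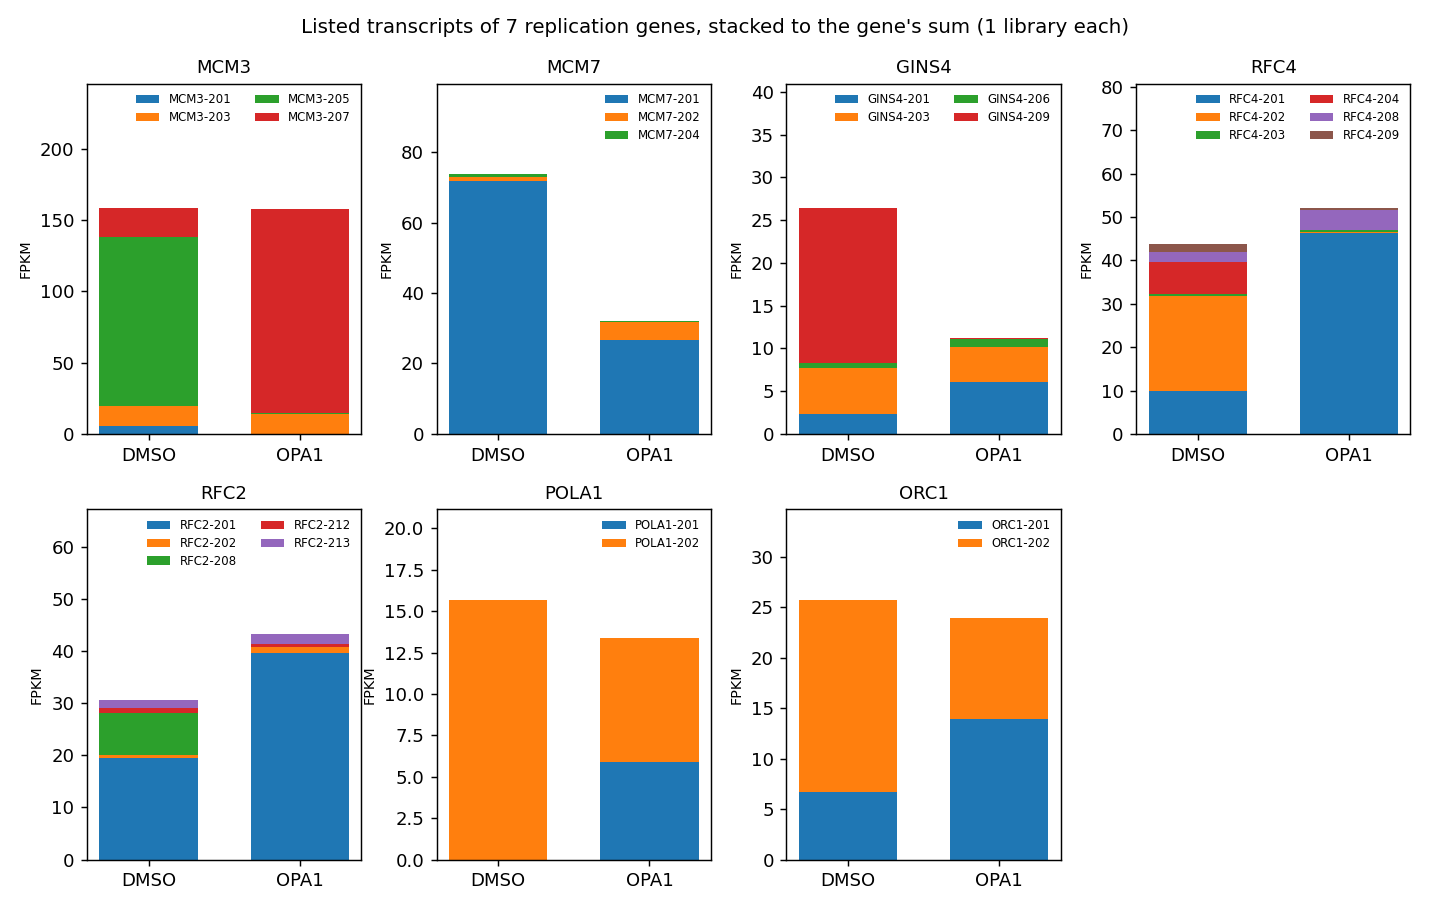
FPKM of each listed transcript of MCM3, MCM7, GINS4, RFC4, RFC2, POLA1 and ORC1, stacked to the sum of the gene in the DMSO and the OPA1 library, 1 library each. In MCM3 the bars are of equal height but MCM3-205 (118 FPKM with DMSO) gives way to MCM3-207 (143 FPKM with OPA1), whereas the bar of MCM7 is shorter with OPA1.

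**Figure D4:**
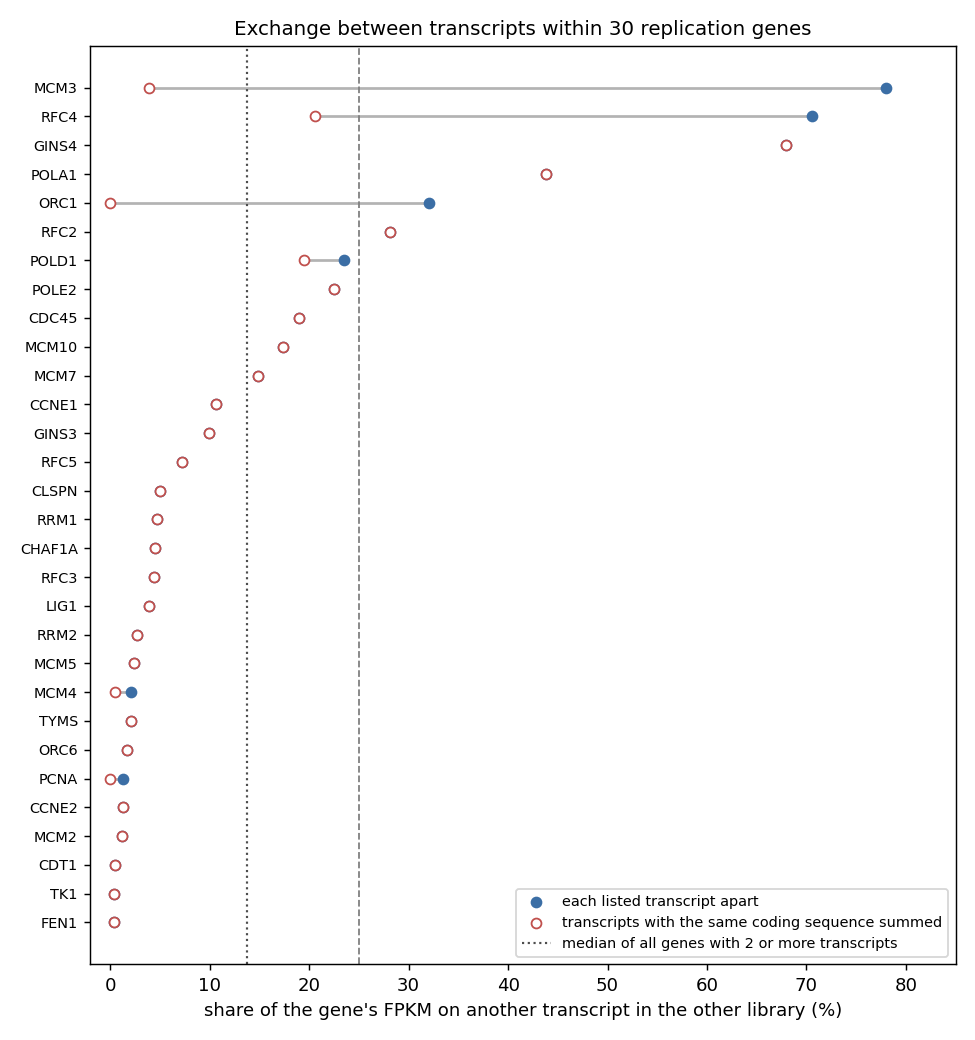
Share of the FPKM of each of 30 genes that would have to pass to other transcripts to turn 1 library's make-up into the other's, in percent, with each transcript apart (filled) and with transcripts of the same coding sequence summed (open). The dashed line marks 25% and the dotted line the median of all genes with 2 or more transcripts, 13.8%, above which 11 of the 30 genes lie with each transcript apart.

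Other genes of the same pathway, 75 in 4 lists, gave a like picture. All 75 had a mean of at least 1 FPKM, 35 were higher and 40 lower, and their median log2 ratio was -0.01. At least 2-fold higher were 2 of the 75, and at least 2-fold lower were 2, shares near the 1.97% and 1.99% of all genes. POLE3, a small histone-fold subunit of the leading-strand polymerase, was at 16.2 and 41.2 FPKM, with both of its listed transcripts higher. CHTF18, the large subunit of an alternative clamp loader, was at 3.25 and 9.42 FPKM. Of its listed transcripts, CHTF18-201 was at 3.25 and 5.19 FPKM (log2 ratio 0.54), and CHTF18-205 at a listed 0 and 4.23 FPKM. E2F4, an E2F factor that acts mainly as a repressor, was at 27.5 and 7.36 FPKM from 1 listed transcript, a ratio of 3.73 of DMSO over OPA1. ATRIP, the partner of the checkpoint kinase ATR, was at 3.29 and 0.377 FPKM.

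Among the 17 further licensing and firing genes, with a median of -0.11, GMNN, the inhibitor of CDT1, was at 20.3 and 30.6 FPKM, RECQL4 at 33.4 and 24.6 FPKM and ORC2 at 7.65 and 6.49 FPKM. Of the 25 polymerase, clamp and fork genes, with a median of 0.08, the next in size was RNASEH2B, a subunit of the nuclease that removes ribonucleotides, at 52.3 and 85.9 FPKM. Of the 11 nucleotide supply genes (median 0.02), PAICS of purine synthesis was at 105 and 59.8 FPKM, UMPS of pyrimidine synthesis at 4.13 and 5.06 FPKM and DUT, which removes dUTP, at 47.3 and 54.6 FPKM. The 22 genes of G1/S control and chromatin had a median of -0.09, and after E2F4 and ATRIP the next was E2F3, at 5.46 and 2.66 FPKM. Its ratio of DMSO over OPA1 was 2.05 by bare FPKM, but its log2 ratio after adding 1 FPKM was -0.82, short of 2-fold. A list of 26 mitosis genes, the phase that follows replication, had a median of -0.03, a range of -0.25 to 0.13 and no gene at 2-fold in either direction. The widest values of the replication genes therefore lie outside the range of the mitosis list, a difference that was not tested.

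Marker genes were checked against the labelled cell line. Of 12 monocytic markers 11 had at least 1 FPKM, including SPI1, at 107 and 113.5 FPKM, and ELANE, at 363 and 448 FPKM. Of 20 markers of T, NK, B, erythroid, epithelial and fibroblast cells, NKG7 alone reached that level, at 26.9 and 27.9 FPKM. The listed FPKM of all transcripts summed to 325059 with DMSO and 331515 with OPA1.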

How the data were processed

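RNA of 2 THP-1 cultures, 1 per treatment, was extracted with Trizol and sequenced as Illumina libraries, per the labels' protocols. The deposited table gives FPKM per protein-coding transcript, per the file headers, for 29373 transcripts. HISAT, StringTie, edgeR and hg19 are named without versions or roles in the submitters' processing notes. Counting strand and library type were not given in the sources consulted, and transcripts of other types were not analysed here. In the copy used, 2 lines of the table were empty.

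Transcripts were summed per gene symbol, genes averaging 1 FPKM or more were kept, and log2((OPA1 + 1)/(DMSO + 1)) was taken. FPKM are relative to the total of each library. No test was possible with 1 library per group. The values were searched for multiples of what 1 read is worth, which gave no alignment (0.164 and 0.157, where 1 means whole reads), so counts were not recovered and depth is unknown. Residues, lengths and coding sequences came from GENCODE release 29 by transcript ID, without its coordinates (29240 of 29373 transcripts found, 106 of 106 for the 37 genes). Promoters came from RefSeq on GRCh38.p14.

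Every member was named, with transcripts for those at 2-fold or with at least 25% exchange, and the 3 other genes per list with the largest log2 ratios. CDC45 and CHTF18 transcripts, the genes ORC3, ORC4, ORC5 and RFC1, and the 2 genes in the closing section were added after their values were seen. The members and lists were chosen with earlier results of these data known. The alternatives comprised a smaller pseudocount (0.1 FPKM), a higher minimum mean (5 FPKM) and no minimum, rescaling to a sum of 1000000, centring, the transcript with the highest mean FPKM, and genes with steady transcript shares (at most 10% exchange). The computation was tested on simulated data. The work used pandas 2.3.3 and numpy 2.4.6 under Python 3.11.15, with figures from matplotlib 3.10.9.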

Additional observations from a re-analysis of the deposited data

How the results depend on the processing

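With no replicates or counts, a median was taken to have moved when it changed by over 0.1 (log2), and a count when it changed by over 1.5 times. The smaller pseudocount, the higher or absent minimum level, rescaling and centring moved neither the medians of the 37 genes, the 10 role groups and the 75 other genes, nor the counts of the 37 genes at 2-fold, nor the log2 ratio of any of the 37 genes. Rescaling turned the sign of 1 gene near 0, CCNE1 (0.02 to -0.0034). Taking the transcript with the highest mean FPKM in place of the sum moved 12 of the 37 genes and turned the sign of 4. It gave 2 genes at least 2-fold higher, MCM3 (2.76) and RFC4 (2.13), in place of 0. The medians became -0.64 for ORC, 0.41 for the polymerase subunits and 0.46 for RFC, while MCM7 (-1.41) and GINS4 (-4.13) stayed lower. The medians of MCM2-7 (0.05) and of the 75 other replication genes (0.02) turned sign near 0. Genes with steady transcript shares numbered 25 of 37, without RFC2 and RFC4. MCM7 and GINS4 are not among them, so 0 genes at 2-fold lower were left, and the medians of ORC and RFC became -0.40 and -0.062. The polymerase median thus turned sign with the way transcripts were combined, and the RFC median with the genes kept. Chosen after seeing the data were exchange limits of 10% and 50%, which gave 12 and 3 of 30 genes in place of 6, and summing transcripts of the same coding sequence, which gave 3. No paired analysis was possible because each group is 1 library. The unknown read depth limits every value, and that of low transcripts most.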

Other observations

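In 2 further genes of the pathway, chosen after their values were seen, transcripts with different protein products differed in opposite directions. DUT is the enzyme that removes dUTP. DUT-201, of 252 residues, was at 20.7 FPKM in the DMSO library and at 6.32 FPKM in the OPA1 library, and DUT-202, of 164 residues, at 17.1 and 30.1 FPKM. Other DUT models also differed, with DUT-204, an incomplete model, at a listed 0 and 8.70 FPKM, DUT-205 at 1.41 and 4.84 FPKM and DUT-207 at 4.48 and 1.37 FPKM. The sum of the gene was 47.3 and 54.6 FPKM. E2F3 also has a longer and a shorter product made from separate start sites. E2F3-201, of 465 residues, was at 3.53 and 0.0904 FPKM, and E2F3-202, of 334 residues, at 1.32 and 2.38 FPKM. Neither gene has a replicate, and 33.1% of genes with several transcripts had at least 25% exchange.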
